A study of Homo sapiens with 90 samples.

Results

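H3122 is an established human lung adenocarcinoma cell line that carries an EML4-ALK fusion, and THZ1 is a covalent CDK7 inhibitor with further activity on CDK12 and CDK13. The comparison described here is between 3 H3122 libraries from cells given 50 nM THZ1 for 48 h (replicates 1, 2 and 4) and 3 from cells given the vehicle, 0.1% DMSO, for 48 h (replicates 2, 3 and 4). These 6 libraries were taken by cell line, drug and time from the 90 RNA-seq libraries of the study, and all genes with enough counts were examined. The study set THZ1 and targeted inhibitors, alone and together, side by side in several tumor cell lines. Each line has 1 driver and 1 genetic background, so H3122 stands for itself and not for ALK-driven lung cancer at large. Other H3122 arms used here had crizotinib, an inhibitor of ALK and MET, at 250 nM for 48 h or for 7 days, or 250 nM crizotinib with 50 nM THZ1 for 48 h, with 3 libraries each. All of these cells were grown in RPMI with serum. The labels do not say whether replicates were separate cultures, so p-values measure the spread between these libraries, which may be technical.

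CDK7 with cyclin H and MNAT1 is the kinase part of the general transcription factor TFIIH. It phosphorylates the tail of RNA polymerase II as transcription begins and also activates the cell-cycle kinases, while CDK12 and CDK13 with cyclin K phosphorylate the same tail during elongation. Genes with short-lived transcripts and genes driven by strong enhancers are commonly described as the most sensitive to such inhibitors. H3122 cells descend from airway and alveolar epithelium, whose secretory cells make mucins, BPI-fold proteins, surfactant proteins and innate defence proteins.

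Promoter sequence is shown for 4 genes described below: VGF, which had the largest called rise among genes of at least 5 CPM (a scaled count, defined below) whose libraries did not overlap; H2BC21, a replication-dependent histone gene that rose; BPIFA1, the airway secretory gene with the largest fall; and INSIG1, a sterol-regulated gene that fell. The sequences are RefSeq's, on GRCh38.p14, and each is the 120 bases up to the annotated start, 5′ to 3′ on the gene's strand. Capitals mark a match, on either strand, to the TATA motif TATAAA, the box CCAAT, the cAMP-response palindrome TGACGTCA or the E-box CACGTG.
VGF, chr7:101165570-101165689, minus strand: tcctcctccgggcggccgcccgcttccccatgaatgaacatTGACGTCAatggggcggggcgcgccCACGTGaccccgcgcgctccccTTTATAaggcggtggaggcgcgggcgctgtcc
H2BC21, chr1:149886683-149886802, minus strand: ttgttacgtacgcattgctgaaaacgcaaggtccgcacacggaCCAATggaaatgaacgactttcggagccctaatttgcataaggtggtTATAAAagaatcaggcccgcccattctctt
BPIFA1, chr20:33235876-33235995, plus strand: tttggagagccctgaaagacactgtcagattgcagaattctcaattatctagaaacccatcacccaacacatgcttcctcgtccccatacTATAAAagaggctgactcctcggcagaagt
INSIG1, chr7:155297758-155297877, plus strand: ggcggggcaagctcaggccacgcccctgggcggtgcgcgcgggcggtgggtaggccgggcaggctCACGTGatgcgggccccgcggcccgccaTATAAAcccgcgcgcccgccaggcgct
All 4 sequences hold a TATAAA match, at 32 bases before the start in VGF (as TTTATA), 30 in H2BC21, 30 in BPIFA1 and 27 in INSIG1. VGF also holds TGACGTCA at 79 bases and CACGTG at 54 bases before the start. A match is a description of letters and not a tested binding site.

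The 6 libraries held between 9801815 and 10747689 expected counts, and each of the 15 H3122 libraries correlated best with its own group. One 7-day crizotinib library, replicate 1, stood apart from its group: a chi-square per gene of 17.85 and 23.36 against the other two, where THZ1 and DMSO pairs gave 1.81 to 2.87. It is in neither arm of the comparison but enters the shared estimate of the spread. Levels are given as CPM, a gene's counts scaled to one common library total with TMM factors. CPM is not corrected for transcript length, so levels are compared between libraries and not between genes. The line matched its label. ALK stood at 60.3, 62.7 and 62.1 CPM under DMSO and at most 1.489 CPM on average in the DMSO or THZ1 arm of any of the 5 other lines. The lung lineage factor NKX2-1 stood at 230 to 242 CPM under DMSO. All 15 simple epithelial markers listed were detected, with a summed level of 11500 to 11800 CPM under DMSO and 14200 to 14800 under THZ1. Of 10 blood markers 5 were at 0 in all 6 libraries, among them PTPRC, CD3E, HBB and NKG7, and 3 were at 1 CPM or more under DMSO, with a summed level of 7.68 to 9.89 CPM under DMSO and 8.59 to 9.22 under THZ1.

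THZ1 moved many genes by small amounts and a short list of genes by large ones. Of 14905 genes tested, 3446 (23.1%) were called by edgeR's quasi-likelihood test, at an adjusted p under 0.05 (Benjamini-Hochberg). These were 1617 higher (10.8%) and 1829 lower (12.3%) with THZ1. At least 2-fold changes were called for 131 higher (0.879%) and 243 lower (1.63%) genes. The median log2 change over all genes tested was -0.005, as scaling with TMM factors takes most genes to be unchanged. The balance of rises and falls depends on the scaling: with another method, RLE, the same test called 1783 higher and 1723 lower. No added reference RNA is described, so a change in total RNA per cell would not be seen, and fewer expressing cells cannot be told apart from less RNA per cell. The call count rose to 4994 without the 7-day crizotinib arm and to 4432 without only its replicate 1.

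**Figure D1:**
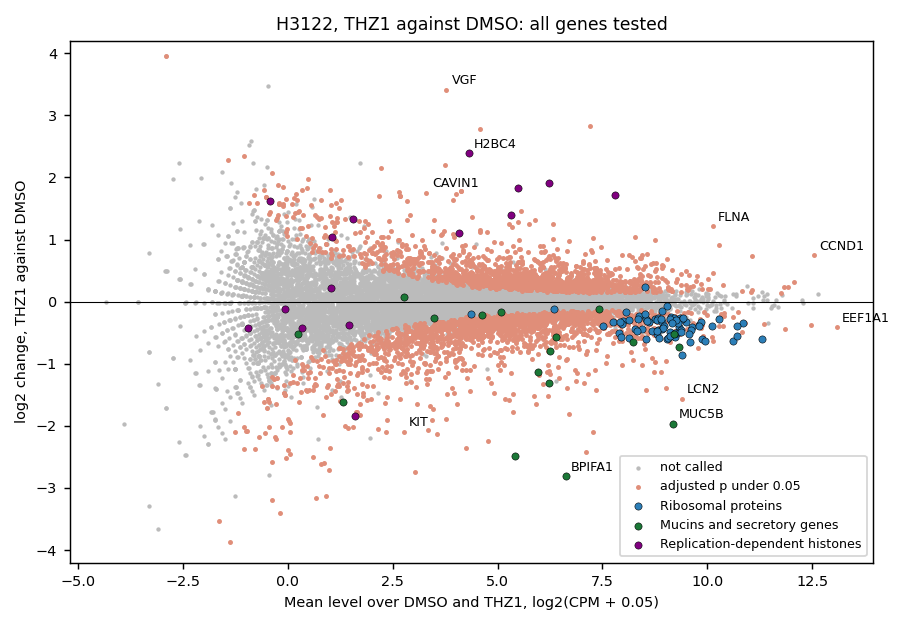
Each point is a gene tested in H3122: mean level over the 6 THZ1 and DMSO libraries (log2 CPM, horizontal) against log2 change with THZ1 (vertical), with called genes in orange and 3 gene lists coloured; 15 genes of low level lie outside the vertical axis. Ribosomal protein genes sit in a tight group just below 0, replication-dependent histones mostly above, and mucins and secretory genes mostly below.

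The kinases that THZ1 binds showed little movement in their own transcripts. CDK7 stood at 26.9, 23.0 and 21.2 CPM under DMSO and 25.3, 27.1 and 25.2 under THZ1, a log2 difference of 0.12 ± 0.12 (SE, adjusted p = 0.485). CDK12 (0.15 ± 0.05, adjusted p = 0.0526) and CDK13 (0.11 ± 0.06, adjusted p = 0.22) did not pass the test either, nor did CCNH at -0.12 and MNAT1 at -0.04. CCNK, the cyclin of CDK12 and CDK13, rose from 126 ± 4.87 to 153 ± 7.16 CPM (SD, n = 3; log2 0.27, adjusted p = 0.00914). Of 20 genes of the CDK7 complex, TFIIH and other transcription kinases, 4 rose and 0 fell: CDK11A (0.38), CDK11B (0.32), CCNK and ERCC3, the TFIIH helicase (0.26). CDK11A and CDK11B are near-identical copies, and their shares of the counts are uncertain. The share of this list that was called was near the 23.1% of all genes tested.

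HEXIM1, which holds the elongation kinase P-TEFb inactive in the 7SK particle, had the largest rise among 25 elongation genes. It stood at 75.2, 76.3 and 69.9 CPM under DMSO and 133, 128 and 127 under THZ1, and the groups did not overlap (log2 0.81 ± 0.10, adjusted p = 2.08e-05). TCEA2, a transcript-cleavage factor for stalled polymerase, rose by 0.56 and the HEXIM1 paralog HEXIM2 by 0.55, the latter from about 4 CPM with an adjusted p of 0.0455. In this list 6 genes rose and 1 fell, AFF4 at -0.15, with a list median of 0.05. The share of the list that was called was near the 23.1% of all genes tested. The polymerase II subunits POLR2L (0.49), POLR2F (0.29) and POLR2C (0.26) rose, 3 of 12 with 0 lower. The largest subunit, POLR2A, was at 448, 502 and 520 CPM under DMSO and 540, 518 and 591 under THZ1, where the groups overlap (0.17, adjusted p = 0.0895). Among 18 genes of RNA 3′ end processing 4 rose and 2 fell, the larger fall being SYMPK, a scaffold of the cleavage complex (-0.57 ± 0.07, adjusted p = 7.5e-06). Splicing regulators of the SR family went only down where called, 5 of 18, led by TRA2B (-0.26) and SRSF6 (-0.25).

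Short-lived transcripts did not move as a block after 48 h. MYC stood at 237, 212 and 213 CPM under DMSO and 226, 226 and 201 under THZ1, with a log2 difference of -0.02 ± 0.07 (adjusted p = 0.862). MCL1, the short-lived survival factor of the BCL2 family, rose by 0.18 (adjusted p = 0.0323). Of 29 immediate-early and short-lived genes, 7 rose and 5 fell, with a median of 0.12. The falls included the nuclear receptor NR4A1, from 195, 199 and 173 to 76.5, 86.9 and 66.8 CPM (log2 -1.30 ± 0.29, adjusted p = 0.00284), and the zinc-finger factor EGR1, from 438, 434 and 454 to 259, 308 and 264 CPM (-0.67). ZFP36, which speeds decay of cytokine mRNAs, fell by 0.61 on the log2 scale and the repressor HES1 by 0.53. The rises were led by KLF10, a TGF-beta early response factor (1.28 ± 0.26), CCN1, a matrix-bound signalling protein (1.25 ± 0.15), and ID2, an inhibitor of helix-loop-helix factors (1.15 ± 0.22).

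In each of these 3 rises THZ1 replicate 1 was the highest library. KLF10 was at 80.3 CPM there and at 54.5 and 54.8 in the other two, CCN1 at 97.0 against 64.3 and 65.9, and ID2 at 45.5 against 26.1 and 27.2. ARC, whose product forms capsid-like particles, showed the widest gap: 3.99, 5.65 and 4.74 CPM under DMSO and 35.5, 14.5 and 16.3 under THZ1 (2.2 ± 0.30, adjusted p = 3.78e-05). Without that library the log2 changes were 1.68 for ARC, 1.07 for KLF10, 1.03 for CCN1 and 0.85 for ID2, and all 4 were still called. This set of 4 was chosen after its values were seen.

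AP-1 genes split. JUN fell from 59.4, 70.6 and 75.5 to 47.0, 37.6 and 38.5 CPM (-0.74 ± 0.09) and JUND from 142, 148 and 153 to 102, 88.2 and 90.7 (-0.66 ± 0.07). FOSL2 fell by 0.38. FOSL1 rose from 42.5, 44.8 and 48.9 to 86.3, 80.9 and 86.3 CPM (0.90 ± 0.10, adjusted p = 5.25e-06) and JUNB rose by 0.60, so of 9 genes 2 rose and 3 fell. In the MYC network 0 of 13 rose and 5 fell, among them MYCN (-0.87), MYCL (-0.69) and the antagonists MXD3 and MXI1 (-0.58 and -0.55); MYCN and MYCL were at or below 7.37 CPM in every library.

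Replication-dependent histone genes formed the clearest group among the large rises. These genes are normally read in S phase and their mRNAs end in a stem-loop in place of a poly(A) tail. Of 59 listed, only 24 were found by symbol among the deposited genes, and 15 of those had enough counts to be tested. The values therefore cover only part of the family. Of the 15 tested, 8 rose and 1 fell, with a median log2 change of 1.10. H2BC21 stood at 16.6, 19.8 and 22.7 CPM under DMSO and 67.9, 72.5 and 69.2 under THZ1 (1.83 ± 0.16, adjusted p = 3.58e-07). H2BC4 rose 5.27-fold, from 6.32 ± 0.677 to 33.3 ± 1.17 CPM (SD, n = 3), and the linker histone H1-2 3.78-fold, from 31.4 ± 2.35 to 119 ± 3.85. H2BC12 was the most counted of them, at 105, 105 and 103 CPM under DMSO and 345, 347 and 335 under THZ1 (1.72 ± 0.09). The member that fell was H2AC20, from 4.2, 6.16 and 3.73 to 1.31, 0.735 and 1.81 CPM (-1.84 ± 0.31). H3C14 and H3C15 held identical values (1.69 each), as near-identical copies whose reads the counting splits, and the pseudogene H2BC20P (1.73) may likewise share reads with related histone genes. The sources used here do not say how mRNA was selected for the libraries, and its part in the histone values was not tested. Genes for histone mRNA processing and replication-independent histones did not rise: 0 of 16 rose and 3 fell, among them H1-10 (-0.43) and H2AZ2 (-0.16).

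The proliferation genes moved little. Of 26 mitosis genes 2 rose, CDC25B (0.43) and TPX2 (0.17), and 0 fell, with a median of -0.05. Of 27 G1/S and E2F genes 0 rose and 8 fell, with a median of -0.12. E2F1, the transcription factor of S-phase entry, fell from 93.8, 91.8 and 94.0 to 62.7, 66.6 and 70.6 CPM (-0.48 ± 0.06, adjusted p = 1.03e-05), and the ribonucleotide reductase subunit RRM2 and the helicase subunit MCM7 fell by 0.48 and 0.35 on the log2 scale. CCND1, cyclin D1, gained the most CPM of any gene, rising from 4432, 4349 and 4457 to 7383, 7477 and 7426 CPM (0.75 ± 0.04, adjusted p = 8.58e-10).

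DNA repair genes, which loss of CDK12 activity is known to lower in other settings, went in both directions here. Of 32 genes of homologous recombination, Fanconi repair and the damage response, 4 rose and 3 fell, with a median of 0.00. The share called was near the 23.1% of all genes tested. RAD51C (0.43), RAD50 (0.41), FANCM (0.36) and RBBP8 (0.22) were higher, and FANCE (-0.41), BRIP1 (-0.31) and FANCD2 (-0.26) lower. BRCA1 was at -0.21 and ATM at -0.00, neither called. Among 23 p53 targets 2 rose, BTG2 (0.74) and the cyclin-kinase inhibitor CDKN1A (0.51), and GDF15, a stress cytokine, fell by 0.75. In the BCL2 family of 17, BCL2L1, which encodes BCL-XL, rose by 0.46 with MCL1, while BCL2L2, BIK, BNIP3L and BMF fell by 0.54, 0.51, 0.46 and 0.31.

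The largest called rise among genes of at least 5 CPM without overlap was that of VGF, a neuropeptide precursor stored in secretory granules. It stood at 1.74, 1.92 and 3.33 CPM under DMSO and at 24.1, 23.2 and 27.4 under THZ1, a 10.7-fold difference with no overlap (log2 3.41 ± 0.23, adjusted p = 9.21e-09). Of 8 neuroendocrine and granule genes tested VGF alone was called, and INSM1 and NEUROD1, which mark neuroendocrine cells, were at 0 in all 6 libraries. CLU, an extracellular chaperone, rose from 23.6, 26.9 and 24.2 to 70.3, 64.2 and 71.1 CPM (1.46 ± 0.07, adjusted p = 3.8e-10). CAVIN1, which coats caveolae, rose 3.38-fold to 15.2 ± 2.96 CPM, the tight-junction gene CLDN9 3.41-fold to 9.69 ± 1.30, and the adhesion molecule ICAM5 3.10-fold to 10.8 ± 0.81 (SD, n = 3). MAB21L4 stood at 7.47, 6.76 and 8.06 CPM under DMSO and 23.1, 23.1 and 23.5 under THZ1.

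Among the 10 genes that gained the most CPM, and so chosen for their rise, were genes of the cytoskeleton and keratins. FLNA, the actin cross-linker filamin A, rose from 648, 679 and 699 to 1607, 1468 and 1610 CPM (1.21 ± 0.06, adjusted p = 5.18e-10). The keratin KRT7 rose from 1606, 1616 and 1581 to 2822, 2545 and 2640 CPM (0.74 ± 0.06), and the keratins KRT8 and KRT19 by 0.31 and 0.46. S100A10, the annexin A2 partner, rose 1.89-fold to 1625 ± 24.3 CPM (SD, n = 3). E-cadherin, CDH1, rose from 234, 245 and 238 to 376, 374 and 378 CPM (0.65 ± 0.06). Beta-actin ACTB and non-muscle myosin MYH9 rose by 0.24 each. Of 15 simple epithelial genes 7 rose and 2 fell, and both that fell are transcription factors of epithelial differentiation, ELF3 (-0.66) and EHF (-0.21).

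Targets of YAP and TEAD, the factors that report cell shape and contact, rose or missed the test. Of 16 tested 9 rose and 0 fell, with a median of 0.55. CCN1, GADD45B (1.09), CCN2 (0.90) and AJUBA (0.80) led. CCN2 stood at 64.5, 42.0 and 36.1 CPM under DMSO and 68.8, 112 and 85.8 under THZ1, and its call (adjusted p = 0.0463) was lost without DMSO replicate 3 (adjusted p = 0.142), DMSO replicate 4 (0.175), THZ1 replicate 2 (0.181) or THZ1 replicate 4 (0.087). Of 20 genes of TGF-beta and BMP signalling 8 rose and 1 fell: FST (1.33), INHBB (1.05) and TGFB2 (1.04) were among the higher, and TGFB1 was the 1 that fell, by 0.54. TGFBI, a matrix protein induced by TGF-beta, rose from 103, 99.9 and 104 to 207, 208 and 206 CPM (1.02 ± 0.09). TIMP2, a metalloprotease inhibitor, rose from 52.8, 50.5 and 54.5 to 112, 101 and 106 CPM (1.01 ± 0.11), and the urokinase gene PLAU rose by 0.56. Of the mesenchymal genes VIM was at 0.14 and FN1 at -0.24, neither called, and TWIST1 fell by 0.98.

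**Figure D2:**
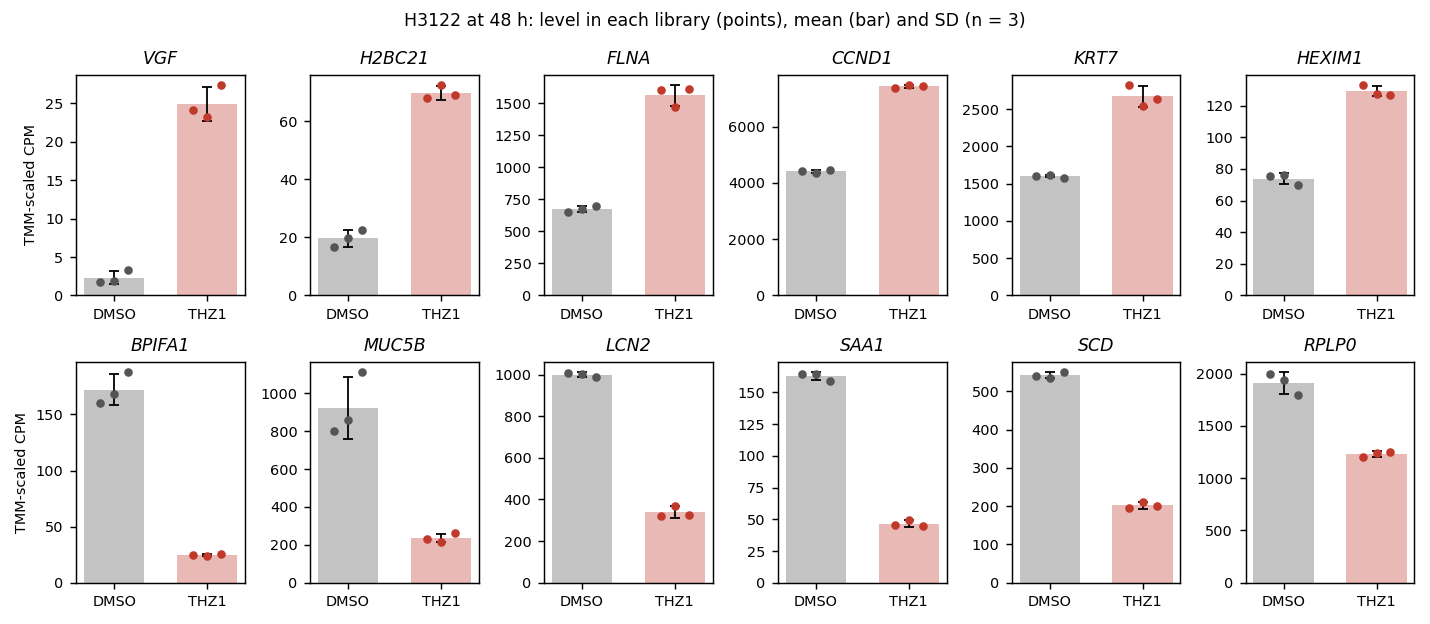
Level of 12 genes in each of the 3 DMSO and 3 THZ1 libraries of H3122 (points, TMM-scaled CPM on a linear axis from 0), with the mean (bar) and SD (line). VGF, H2BC21, FLNA, CCND1, KRT7 and HEXIM1 in the upper row were higher, and BPIFA1, MUC5B, LCN2, SAA1, SCD and RPLP0 in the lower row lower, in all 3 THZ1 libraries.

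Of the 15 largest called falls, among genes of at least 5 CPM whose libraries did not overlap, 4 were airway mucin or secretory genes. BPIFA1, a secreted protein of the airway surface liquid, stood at 160, 168 and 188 CPM under DMSO and at 24.6, 23.5 and 25.4 under THZ1 (log2 -2.81 ± 0.16, adjusted p = 8.58e-10). BPIFB1 fell from 71.4, 70.9 and 75.9 to 11.8, 13 and 14.2 CPM (-2.48 ± 0.19) and BPIFB2 from 16.9, 16.8 and 23.6 to 5.25, 3.15 and 4.56 (-2.13 ± 0.20). The gel-forming mucin MUC5B, the most counted mucin among the named genes, fell from 801, 859 and 1110 to 233, 215 and 260 CPM (-1.97 ± 0.14, adjusted p = 3.23e-08). Its neighbours on chromosome 11, MUC5AC and MUC2, fell by 1.31 and 1.14 on the log2 scale. In RefSeq's gene order these 3 mucins are adjacent, and BPIFB2, BPIFA1 and BPIFB1 lie on chromosome 20 with 5 other protein-coding genes among them. PIGR, which carries IgA across the epithelium, fell by 1.62. Of 17 mucin and secretory genes 0 rose and 10 fell, with a median of -0.66. AGR2, a folding enzyme for mucins, was at -0.52, LYZ at -0.53 and SLPI at -0.21, none of them called.

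The cobalamin carrier TCN1 fell from 32.2, 31.7 and 30.6 to 5.96, 7.24 and 5.23 CPM (-2.36), the brush-border glucosidase MGAM from 48.5, 44.6 and 43.0 to 8.79, 11.2 and 8.75 (-2.25) and the glucose transporter SLC5A1 from 16.5, 18.2 and 16.1 to 4.45, 5.56 and 3.61 (-1.90). SPRR2A, a cornified-envelope precursor, stood at 14.5, 14.9 and 13.2 CPM under DMSO and 2.93, 2.31 and 1.14 under THZ1 (-2.75). The flippase ATP10B fell by 1.91. Among 14 squamous genes 3 fell, SPRR3 (-1.53), S100A9 (-0.95) and SPRR1B (-0.57), and the keratin KRT80 rose by 0.88.

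Lung identity genes were lower in 5 of the 6 that were called. NKX2-1 stood at 242, 237 and 230 CPM under DMSO and 165, 166 and 165 under THZ1 (-0.51 ± 0.07, adjusted p = 5.07e-05), and the pioneer factor FOXA1 fell by 0.44. LAMP3, a lamellar-body protein, fell by 0.48. The surfactant protein genes SFTPA1 (-2.11) and SFTPA2 (-1.79) were called lower from levels of at most 1.51 CPM, are adjacent near-identical copies on chromosome 10, and are uncertain for both reasons. Of 16 tested 5 fell and ABCA3, the surfactant lipid transporter, rose by 0.51, with a list median of -0.39. SFTPC, SCGB1A1, ROS1 and CLDN18 were at 0 in all 3 DMSO libraries, so the line holds only part of this programme.

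Inflammatory mediators fell with the secretory genes. PTGS2, the inducible cyclooxygenase, stood at 232, 231 and 231 CPM under DMSO and 47.8, 46.8 and 35.5 under THZ1 (-2.42 ± 0.17, adjusted p = 1.97e-08). IL6 fell from 8.80, 8.78 and 6.96 to 1.72, 2.41 and 1.62 CPM (-2.09) and the granulocyte growth factor CSF3 from 16.5, 16.2 and 16 to 4.85, 3.78 and 3.04 (-2.06). The acute-phase gene SAA1 fell from 164, 165 and 159 to 45.7, 49.8 and 44.6 CPM (-1.80 ± 0.07, adjusted p = 2.02e-11), and its adjacent copy SAA2 by 1.65. LCN2, the siderophore-binding lipocalin, stood at 1008, 1004 and 988 CPM under DMSO and 321, 371 and 323 under THZ1 (-1.56 ± 0.10). Of 26 NF-kB cytokine, chemokine and feedback genes 0 rose and 13 fell, with a median of -0.43. The chemokines CXCL5 (-2.49, from at most 2.73 CPM), CCL2 (-1.48), CCL20 (-1.42) and CXCL8 (-1.02) were among the 13. NFKBIZ, an inducible member of the IkB family, fell by 0.90 (adjusted p = 0.000132). The feedback genes NFKBIA (-0.02), TNFAIP3 (-0.10) and NFKB1 (-0.06) were not called.

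Interferon and antigen presentation genes did not follow the cytokines. Of 19 antigen presentation genes 8 rose and 0 fell. The peptide transporter TAP1 rose by 0.58 and the immunoproteasome subunit PSMB9 by 0.68. Of 28 interferon-stimulated genes 5 rose and 2 fell, the exonuclease ISG20 (-1.0) and the RNA sensor OAS1 (-0.43, where the groups overlapped). The share of interferon-stimulated genes called was near the 23.1% of all genes tested.

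Receptor genes changed one by one. KIT, the receptor of stem cell factor, stood at 12.5, 8.58 and 11.6 CPM under DMSO and 2.93, 2.73 and 2.0 under THZ1 (-2.09 ± 0.18, adjusted p = 3.31e-07). KDR, a VEGF receptor, fell from 7.06, 7.37 and 6.86 to 2.02, 1.78 and 1.33 CPM (-2.05) and the insulin receptor INSR by 0.98. KDR and CDH5 are also 2 of the 5 fibroblast and endothelial markers that could be tested, and the summed level of that list was 168 to 188 CPM under DMSO and 162 to 195 under THZ1. ALK, the driver of the line, moved from 60.3, 62.7 and 62.1 to 52.4, 55.3 and 53 CPM (-0.20 ± 0.06, adjusted p = 0.0176), and its fusion partner gene EML4 fell by 0.30. Gene-level counts cannot separate fusion from normal transcripts. EGFR (0.39), MET (0.21), FGFR3 (0.70), TGFA (0.46) and HBEGF (1.15) were higher, so of 21 receptor and ligand genes 7 rose and 6 fell.

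Lipid synthesis genes were lower. SCD, the stearoyl-CoA desaturase, stood at 540.8, 533.6 and 549.4 CPM under DMSO and 194, 212 and 201 under THZ1 (-1.42 ± 0.11, adjusted p = 6.83e-08). FADS2 fell from 146, 142 and 147 to 55.2, 56.4 and 54.0 CPM (-1.39), FADS1 by 1.05 and ACSS2 by 1.03. Their regulator SREBF1 fell from 570, 581 and 586 to 254, 254 and 280 CPM (-1.14 ± 0.08, adjusted p = 1.81e-08), and 6 of 10 fatty acid genes were lower with 0 higher. In the cholesterol list 11 of 21 fell and 0 rose. INSIG1, the sterol sensor partner of SCAP, fell from 111, 112 and 104 to 36.5, 40.8 and 37.5 CPM (-1.51 ± 0.11).

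Stress and amino acid supply genes fell more often than they rose. Of 24 ATF4-related genes 2 rose, ATF5 (0.52) and STC2 (0.25), and 13 fell, among them CTH (-0.76), CBS (-0.73), asparagine synthetase ASNS (-0.69) and the cystine transporter SLC7A11 (-0.64). ATF4 itself fell by 0.42. XBP1, a factor of the unfolded protein response and of secretory cells, fell from 337, 334 and 325 to 172, 157 and 164 CPM (-1.01 ± 0.09, adjusted p = 3.32e-07), and DNAJB9 and HERPUD1 fell by 0.88 and 0.79; of 20 genes of that response 6 fell and 0 rose. Cytosolic heat shock genes went the other way in 6 of 16, with HSPA1B at 0.75 and HSPA1A at 0.48, near-identical copies, and HSPB1 fell by 0.15. In glycolysis 1 of 20 rose, the glucose transporter SLC2A1 (0.49), and 4 fell: PFKFB3 (-0.52), HK2 (-0.38), GAPDH (-0.37) and ALDOA (-0.18). Of 17 FOXO targets 8 fell and 2 rose. In the lysosome list 7 of 22 rose, among them the protease genes CTSL (0.51) and CTSD (0.39), and 4 fell, among them the autophagy receptor SQSTM1 (-0.43).

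Ribosomal protein transcripts fell almost as a set and by a narrow amount. Of 77 tested 70 fell and 1 rose, FAU (0.23), with a median log2 change of -0.39. RPS12 had the largest fall, from 884, 873 and 826 to 475, 482 and 465 CPM (-0.86 ± 0.05, adjusted p = 1.07e-09). RPLP0, a stalk protein, stood at 1998, 1936 and 1800 CPM under DMSO and 1203, 1244 and 1251 under THZ1 (-0.63 ± 0.05), and RPS2 fell by 0.60. Other genes whose mRNAs start with the same oligopyrimidine tract fell too: EEF1A1, the most counted of the named genes, went from 10240, 9934 and 9527 to 7352, 7668 and 7269 CPM (-0.41 ± 0.08), with EEF1G (-0.48), TPT1 (-0.42) and EEF2 (-0.36), 9 of 16 in all and 0 higher. Of 15 snoRNA host genes and nuclear non-coding RNAs 9 fell and 0 rose, led by SNHG5 (-0.85), GAS5 (-0.80) and SNHG29 (-0.71). The 15 transcripts of the mitochondrial genome gave a median of 0.02 with 0 called in either direction. Ribosomal protein, EEF1A1, GAPDH and FTH1 reads are shared with many processed pseudogenes, and the split of such reads by the counting is uncertain.

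**Figure D3:**
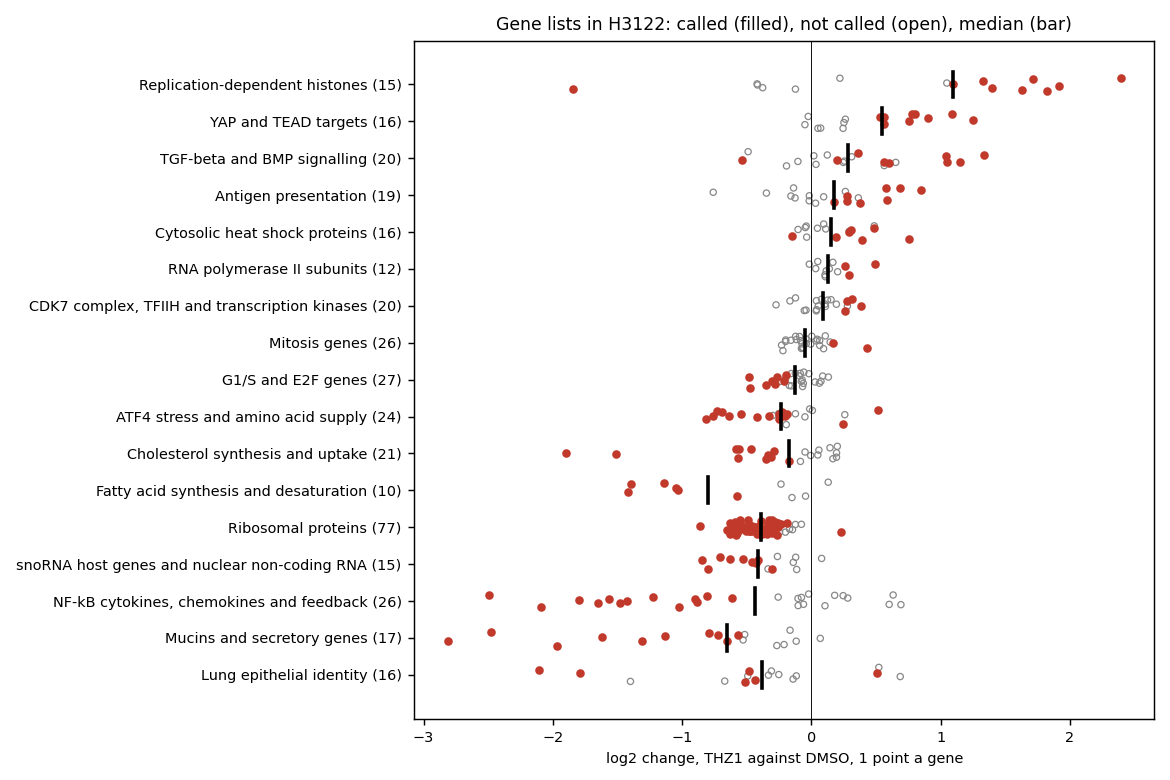
Log2 change with THZ1 for each tested member of 17 gene lists (1 point a gene; filled, called; open, not called; number tested in brackets), with the list median as a bar. Histones and YAP and TEAD targets have medians of 1.10 and 0.55; fatty acid synthesis, mucins, NF-kB genes and ribosomal proteins have medians of -0.80, -0.66, -0.43 and -0.39, beside -0.005 over all genes tested.

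Promoter letters and gene length were set beside the response. In the window from 250 bases before to 50 bases after the RefSeq start, TATAAA on either strand was present in 5.86% of the 10960 tested genes with a promoter in the table, in 22.8% of those called at least 2-fold higher (18 of 79) and in 20.5% of those called at least 2-fold lower (33 of 161). Leaving out replication-dependent histones, the share among the 2-fold higher genes was 15.9% (11 of 69). Among all called genes, of any size of change, it was 5.68% for those higher (71 of 1250) and 8.29% for those lower (117 of 1412). Over all 27305 promoters in the table it was 12%. CCAAT was present in 36.5% of the tested genes with a promoter, 44.3% of the 2-fold higher and 42.2% of the 2-fold lower ones. Among all called genes CCAAT was present in 33.6% of those higher and 38.7% of those lower. Gene span showed little relation to the response: Spearman's rho over 13038 protein-coding genes was 0.02. In the shortest quintile, with spans to 10.6 kb, 9.32% were higher and 18.1% lower, or 16.4% lower without ribosomal proteins. In the longest quintile, from 100 kb, 10.4% were higher and 13.4% lower. These shares are descriptions, since genes are not replicates.

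The same dose of THZ1 was also given on top of crizotinib, in 6 further H3122 libraries, which gives a second reading of the drug in this line. Against crizotinib alone for 48 h, the combination changed 4414 genes (29.6%), 2282 higher (15.3%) and 2132 lower (14.3%). Of the genes higher with THZ1 alone, 838 were higher here as well (51.8% of the THZ1 list, 36.7% of the combination list) and 50 were lower. Of those lower with THZ1 alone, 909 were lower here as well (49.7% and 42.6%) and 76 were higher. The contrasts share no library but share the estimate of the spread. A test of the difference between them called 1135 genes (7.61%), 603 with a more positive (4.05%) and 532 with a more negative (3.57%) THZ1 effect under crizotinib. That count was 2633 without the 7-day crizotinib arm.

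Histones and ribosomal proteins gave close medians in both settings. The 15 histone genes had a median of 1.09 under crizotinib with 9 higher and 1 lower. Among 77 ribosomal protein genes 69 fell under crizotinib, with a median of -0.42. The difference between settings was called for 0 genes of either list, beside 7.61% of all genes tested. An uncalled difference does not show equal effects. The low-count histone gene H2AC21 was at -0.42 alone and at 1.03 under crizotinib, with the difference not called. H2BC4 changed by 2.31, HEXIM1 by 1.35 and FLNA by 1.58 in log2. For HEXIM1 and FLNA the change was larger than with THZ1 alone, by 0.54 (adjusted p = 0.0287) and 0.37 (adjusted p = 0.0162). VGF rose from 0.971 ± 0.0939 to 31.0 ± 1.95 CPM (SD, n = 3), a log2 change of 4.97.

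Mitosis genes, nearly still with THZ1 alone, fell under crizotinib. Of 26 tested 25 fell and 0 rose, with a median of -0.90, and for 24 the difference between settings was called. TPX2, a spindle assembly factor, changed by 0.17 alone and by -0.68 under crizotinib (difference -0.84, adjusted p = 6.29e-06). Mitochondrial genome transcripts, with 0 called alone, had 12 of 15 higher under crizotinib and a median of 0.37, with the difference called for 3. POLR2A changed by 0.17 alone and by 0.75 under crizotinib (difference 0.59, adjusted p = 0.000854).

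Several genes that fell with THZ1 alone stood at lower mean levels under crizotinib than under DMSO, given here as values with no test. MUC5B stood at 923 ± 164 CPM with DMSO, 180 ± 28.9 with crizotinib and 160 ± 36.7 with both drugs (SD, n = 3; log2 -0.17, adjusted p = 0.415), against the fall of 1.97 with THZ1 alone; the difference was 1.80 (adjusted p = 2.08e-05). IL6 was at 2.24 ± 0.479 and 1.75 ± 0.263 CPM and BPIFB2 at 1.85 ± 0.453 and 2.54 ± 0.729 CPM, and the difference between settings was called for each. MUC5AC and MUC2, lower with THZ1 alone, rose under crizotinib by 1.33 and 1.26. BPIFA1 fell in both settings, by 2.81 alone and by 1.47 under crizotinib. SCD stood at 64.2 ± 5.23 CPM with crizotinib and 88.5 ± 3.75 with both drugs (SD, n = 3). It turned direction, falling by 1.42 alone and rising by 0.46 under crizotinib (difference 1.88, adjusted p = 1.97e-06). After 7 days of crizotinib without THZ1, MUC5B stood at 1398 CPM and BPIFA1 at 551 CPM on average.

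**Figure D4:**
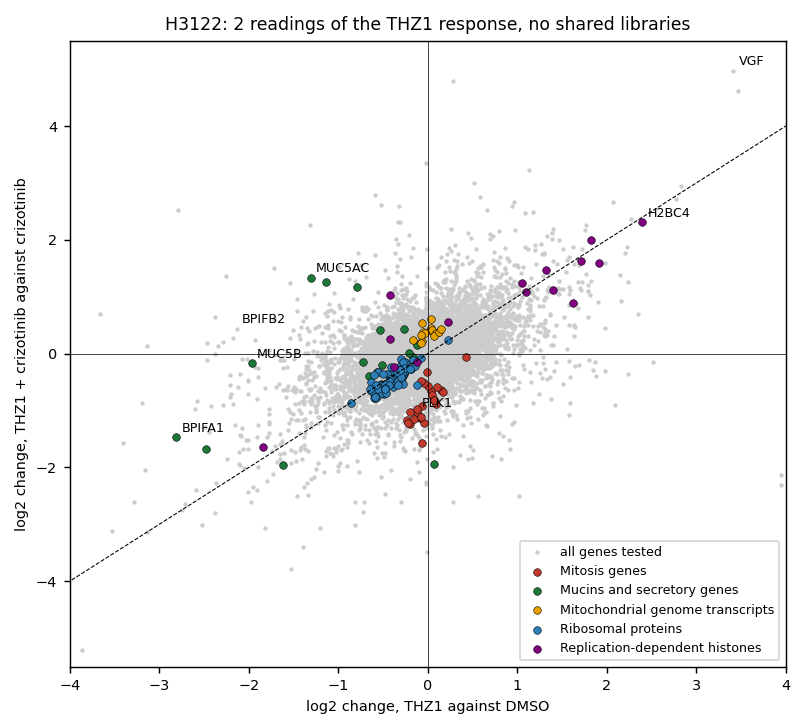
Log2 change of each gene with THZ1 against DMSO (horizontal) and with THZ1 plus crizotinib against crizotinib (vertical) in H3122, with 5 gene lists coloured and equality dashed; 19 genes lie outside the axes. Most histones and the ribosomal proteins lie near the dashed line, mitosis genes lie near 0 on the horizontal axis and below 0 on the vertical one, and MUC5B, MUC5AC and BPIFB2 lie left of 0 and far above the line.

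To see which parts of the response differ from other tumor lines, the THZ1 effect in H3122 was tested against the mean effect in A375, A549, N87, PC9 and RT112, each with 3 THZ1 and 3 DMSO libraries at 48 h. The doses were 50, 150, 25, 100 and 100 nM, so only A375 had the dose of H3122. Of 17795 genes tested 3615 differed from the mean (20.3%), 1863 with a more positive (10.5%) and 1752 with a more negative (9.85%) effect in H3122. Against A375 alone 6166 differed (34.7%). In this joint fit A375 had 9283 genes called for THZ1 against DMSO (52.2%).

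Among genes also called for THZ1 against DMSO in H3122, with at least 5 CPM there, VGF had the largest positive difference. Its log2 change was 3.40 in H3122, 1.84 in A549, 1.77 in PC9, 0.76 in N87 and 0.57 in RT112, and it fell in A375, where it went from 544 to 299 CPM (-0.87). The excess over the mean of the 5 lines was 2.59 ± 0.22 (adjusted p = 2.11e-11). KLF10 rose by 1.27 in H3122 and was between -0.67 and -0.02 in the others, a difference of 1.70 ± 0.19 (adjusted p = 2.69e-08). Its level under DMSO was 26.4 CPM in H3122 and 61.2 to 270.0 CPM elsewhere. Of the 29 immediate-early and short-lived genes, 15 had a more positive effect in H3122 than in the mean of the others and 0 a more negative one. The list's median log2 change was 0.11 in H3122, -0.30 in A375 and A549, -0.26 in N87, -0.94 in PC9 and -0.58 in RT112.

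Other genes with a more positive effect in H3122 differed in what the other lines did. HBEGF, an EGFR ligand, rose in H3122 by 1.13 and in A375 by 1.31 and fell by 2.59 in RT112, so its difference of 1.70 (adjusted p = 0.00423) does not set H3122 apart from A375 (-0.18, adjusted p = 0.876). IGF2BP1, an RNA-binding protein of fetal tissue, differed by 1.59, with a fitted value of -3.60 in RT112 from 0.128 CPM. ADIRF differed by 1.58. MAB21L4 differed by 1.5, though it also rose in RT112 from 3.38 to 8.22 CPM and in PC9 from 76.3 to 107 CPM. In A375 MAB21L4 was almost without counts, at 0.148 CPM under DMSO and 0.0238 under THZ1. The decoy receptor TNFRSF6B differed by 2.19. It had few counts in N87 (0.797 to 0.192 CPM) and PC9 (0.805 to 0.143 CPM). TNFRSF6B also fell in A375 (6.19 to 3.34), A549 (2.69 to 1.47) and RT112 (6.98 to 4.38). ADM2 fell by 0.56 in H3122 and by 4.42 in A549, 2.69 in RT112 and 2.08 in PC9, so that the difference of 1.48 marks a smaller fall.

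Several genes on the other side stood at far higher levels in H3122 than in the other lines. The choice asked for a call and at least 5 CPM in H3122 and for no level elsewhere, so it favours genes high in H3122. MGAM was at 46.3 CPM under DMSO in H3122 and at most 4.02 CPM in the others, with a difference of -4.02 ± 0.37 (adjusted p = 3.19e-10) that rests in part on a fitted 5.67 in A375, where DMSO libraries were at 0. SAA1 was at 166 CPM against at most 0.164 elsewhere, so its difference of -3.45 (adjusted p = 0.00193) sets a measured fall against lines with almost no counts. KRT78 (-2.05) was at 44.4 CPM under DMSO against at most 1.89 elsewhere. PKD1-AS1 (-2.04) was at 24.6 CPM against at most 2.42, and moved from 2.09 to 4.66 CPM in PC9. PIP5K1B (-2.12) was at 8.91 CPM against 2.4 in RT112 and at most 0.642 in the other 4 lines. SPX (-2.52) was at 9.36 CPM in H3122, at 124 in A549, where it went to 43.6 with THZ1, and at most 0.0577 elsewhere. HDAC9, a class IIa histone deacetylase, fell from 26.2 to 15.5 CPM in H3122. It rose in A375 from 2.51 to 11.7 CPM and in PC9 from 12.7 to 24.2 CPM (difference -2.04 ± 0.19, adjusted p = 3.23e-10). In N87 HDAC9 moved from 7.75 to 8.71 CPM. That difference also rests in part on few counts in A549 (0.197 to 0.651 CPM) and RT112 (0.754 to 1.99 CPM). The noncoding RNA APPAT fell from 64.7 to 18.8 CPM in H3122 and rose in N87 from 16 to 25.9 CPM (difference -2.40 ± 0.22).

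Among the lists, ribosomal proteins were lower in every line, with medians of -0.40 in H3122, -0.31 in A549, -0.48 in RT112, -0.50 in PC9, -0.61 in N87 and -0.67 in A375. Histones were higher in every line by the median, from 0.44 in A549 to 3.09 in A375. The YAP and TEAD list had a median of 0.54 in H3122 and between -0.29 and 0.13 elsewhere, with 10 of its 16 genes more positive in H3122 than the mean of the others and 0 more negative. The ATF4 list had medians of -0.25 in H3122, -0.03 in A375, -0.43 in N87, -0.66 in PC9, -1.20 in A549 and -1.22 in RT112, with 13 genes more positive and 2 more negative in H3122. Mitosis genes had a median of -0.07 in H3122, between -0.12 and 0.24 in A549, N87, PC9 and RT112, and of -1.27 in A375.

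**Figure D5:**
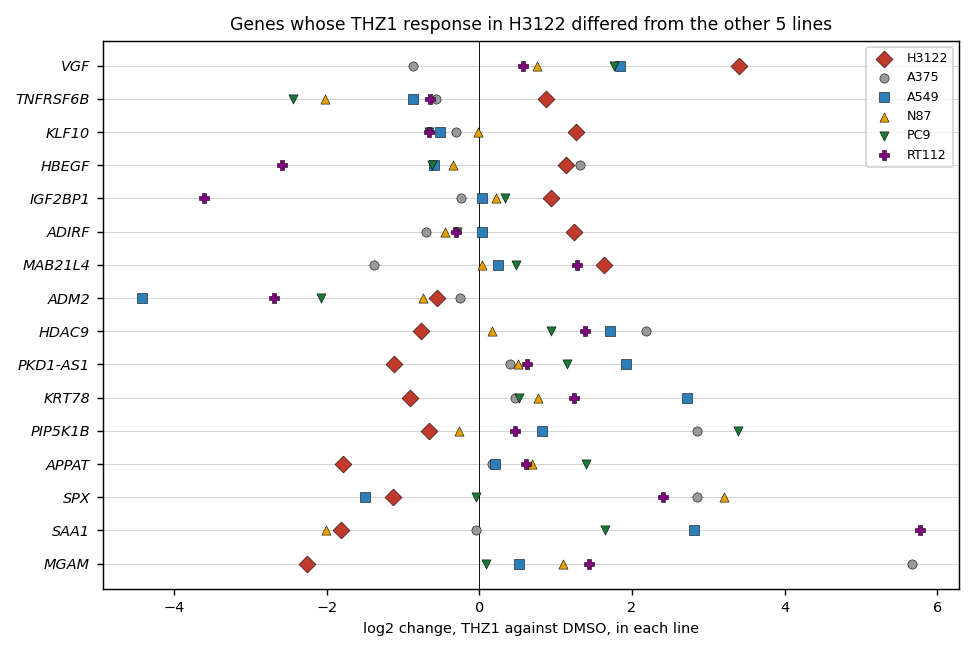
Log2 change with THZ1 against DMSO in each of 6 lines (symbols, 3 libraries per arm) for the 8 genes above and the 8 below the mean of the other lines by the largest difference in H3122 (red diamonds). Only genes also called for THZ1 against DMSO in H3122, with at least 5 CPM in the higher H3122 arm, were ranked. H3122 lies to the right of all other lines for VGF, TNFRSF6B, KLF10, IGF2BP1, ADIRF and MAB21L4; values for genes near 0 CPM in a line, such as SAA1 in RT112, depend on the fit's handling of low counts.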

How the data were processed

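RNA was isolated with the RNeasy micro kit and libraries were prepared with the NEBNext Ultra kit, per the labels' protocols. The authors deposited 1 table of expected counts per gene for 90 libraries, estimated with RSEM 1.2.12 over Bowtie2 2.2.1 against hg19, per the submitters' processing notes; the gene annotation, the strand setting and the mRNA selection are not given in the sources used here. All 90 columns matched a sample by title, and 0 were left unmapped. The table holds 53893 gene IDs, of which 6782 carry no symbol (1.138% of H3122 counts).

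Expected counts (9.916% to 12.33% of values in a library were not whole) were rounded. The 15 H3122 libraries, 5 arms of 3, were fitted together with edgeR 4.0.16 in R 4.3.3: TMM scaling, filterByExpr by arm, quasi-likelihood F tests, Benjamini-Hochberg adjustment over all genes tested, called at an adjusted p under 0.05. The common biological coefficient of variation was 0.071. The effect in H3122 against other lines was fitted over the 36 DMSO and THZ1 libraries of 6 lines. A standard error is the log2 change divided by the square root of F. The scripts were tested on simulated counts: of the 2-fold changed genes at 5 CPM or more, 91.4% were found in the THZ1 against DMSO comparison (14578 genes), and 6.71% of calls were unchanged genes. Over all levels 64.9% of the 2-fold changed genes were found. The simulation changed far fewer genes than were called in the data, so these shares need not hold there.

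The genes named are, by rule, the 15 largest called rises and 15 largest called falls with at least 5 CPM in the higher arm and no overlap between libraries, the 10 largest gains and losses of CPM, up to 4 called members in each direction of 49 gene lists, 10 core genes, and the 8 genes furthest above and below the other lines. The genes set against the other lines were ranked only among those called both there and in H3122, with at least 5 CPM in the higher H3122 arm. Other list members given with a value were chosen after values were seen. Some genes that meet the rule are not reported here. The comparison, rule and lists were chosen with earlier results of these data known. Alternatives were DESeq2 1.42.0, RLE and upper-quartile scaling, other filters, a fit of the 6 libraries only, a replicate block, and leaving out each library; leaving out the 7-day arm or its replicate 1 was added after seeing the data. THZ1 and DMSO libraries share 2 replicate numbers, whose deviations correlated at 0.01 and 0.06, so they were not paired.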

Additional observations from a re-analysis of the deposited data

Results flagged for a closer look

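The THZ1 effect in H3122 differed with and without crizotinib, by a test of the difference itself, for 1135 genes. Among the 30 genes with the largest changes with THZ1 alone, the effect under crizotinib was, among others, more positive for VGF (difference 1.56 on the log2 scale), BPIFA1 (1.35), PTGS2 (1.49), BPIFB2 (2.58), IL6 (1.73), MUC5B (1.80) and ATP10B (1.11), and more negative for MAB21L4 (-1.17). VGF rose in both settings and BPIFA1, PTGS2 and ATP10B fell in both, while BPIFB2, IL6 and MUC5B were not called under crizotinib. These genes were chosen by their change with THZ1 alone, which the difference subtracts using the same libraries. Such a choice draws the differences of genes that fell towards positive values, and of genes that rose towards negative ones.

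The effect also differed between lines. In H3122 it differed from the mean of the 5 other lines for 3615 genes and from A375, given the same dose, for 6166. Genes were ranked by this difference only if also called for THZ1 against DMSO in H3122, with at least 5 CPM in the higher H3122 arm. Among them the largest positive differences from the mean were VGF (2.59), TNFRSF6B (2.19), KLF10 (1.70), HBEGF (1.70), IGF2BP1 (1.59), ADIRF (1.58), MAB21L4 (1.5) and ADM2 (1.48). The largest negative ones were MGAM (-4.02), SAA1 (-3.45), SPX (-2.52), APPAT (-2.40), PIP5K1B (-2.12), KRT78 (-2.05), PKD1-AS1 (-2.04) and HDAC9 (-2.04). TNFRSF6B and the antisense gene PKD1-AS1 overlap other genes, and with no strand setting stated their counts are uncertain.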

How the results depend on the processing

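The number of genes called for THZ1 against DMSO was 3446 and ranged from 3009 with DESeq2 to 4994 without the 7-day arm, with 4914 for the 6 libraries alone and 2511 to 2666 when 1 of the 6 was left out. No call turned direction under any of these. The combination against crizotinib gave 4414 calls, 3786 with DESeq2, 5809 without the 7-day arm and 3399 to 3686 with 1 library left out. The difference between the settings gave 1135 calls, 1069 with DESeq2, 762 to 888 with 1 library left out, and 2633 without the 7-day arm. Against the other lines the 3615 calls ranged from 3539 to 4020 when 1 line was left out, where 2779 (without A375, with 1 turned direction) to 3288 of the calls were kept, and from 3000 to 3101 when 1 library was; the 6166 against A375 ranged from 5752 to 5865. Of the 257 named genes, between 31 and 40 lost their call when 1 library was left out, 12 of 254 with DESeq2 and 16 without a filter on low counts. PIP5K1B and PKD1-AS1 lost their difference from the other lines without PC9. With 1 library left out the uncalled difference of MYC ranged from -0.052 to 0.035, turning to 0.035 without DMSO replicate 2 and 0.032 without THZ1 replicate 4, and that of MNAT1 from -0.095 to 0.0021, turning to 0.0021 without THZ1 replicate 4; the cause was not tested. With the replicate number as a block the counts were 3279, 3960 and 1032 and 14 named genes lost their call. Same-numbered libraries of all arms deviated together with correlations of -0.04 to 0.09. Correlations over all genes cannot exclude a shared culture or day that moved only some genes. The numbers were not used as pairs in the main fit. Depth leaves genes of about 1 CPM, such as SFTPA1, with few counts each.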

Other observations

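In the hypoxia list and the Notch and Wnt list the share called with THZ1 alone was near the 23.1% of all genes tested. That was also so for the CDK7 complex, elongation, polymerase II subunit, SR splicing, DNA repair, interferon-stimulated and glycolysis lists above. The counts called in those lists therefore do not set them apart from all genes. In the mitosis and p53 lists the share called was lower. Of 11 hypoxia-responsive genes 2 rose, the lipase inhibitor ANGPTL4, from 0.921, 0.807 and 0.907 to 3.54, 2.52 and 3.14 CPM, and the vasodilator peptide ADM, from 3.89, 3.53 and 4.94 to 13.6, 7.77 and 9.32 CPM, while VEGFA fell by 0.33 on the log2 scale. In the Notch and Wnt list of 21, where 3 rose and 2 fell, the Wnt antagonist DKK1 rose from 4.71, 3.63 and 3.93 to 9.50, 12 and 10.8 CPM (1.39), and the Wnt target SP5 fell from 2.76, 2.83 and 2.62 to 1.21, 0.525 and 1.05 CPM (-1.54). The Notch ligands JAG1 (0.50) and DLL1 (0.83) rose while the Notch target HES1 fell by 0.53.

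Among transporters of drugs, ABCG2 rose from 3.27, 3.53 and 2.62 to 5.46, 5.98 and 5.04 CPM (0.80) and ABCC3 by 0.54, while ABCC1 fell by 0.29 and the xenobiotic-metabolising CYP1B1 by 0.48. Of 13 NRF2 targets 1 rose and 4 fell, among them TXNRD1 (-0.39), whereas under crizotinib 6 rose and 0 fell with THZ1. The aldehyde dehydrogenase ALDH3A1 rose by 0.30 with THZ1 alone and by 1.43 under crizotinib, a difference of 1.14 (adjusted p = 3.45e-06, edgeR's quasi-likelihood test). KLF11 rose by 0.68 with KLF10, while KLF5, KLF3 and KLF6 fell by 0.48, 0.37 and 0.51.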
